A study of Mus musculus with 16 samples.

Results

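Of the 19592 genes in the normalised table of mouse liver RNA, 39 named genes were higher in every library labelled CryDKO than in every wild-type (WT) library by a fixed margin. The rule asked that the lowest of the 8 CryDKO values be at least 1.5 times the highest of the 8 WT values and that the CryDKO mean be at least 20 normalised reads, a read count divided by the size factor of its library. It was met by 47 genes, 0.389% of the 12082 with a CryDKO mean of at least 20. The 8 left out by name were Arntl, Cd14, Cyp2b13, Cyp2b9, Cyp39a1, Gm13889, Gm40376 and Lepr. The same rule turned around gave 54 genes lower in every CryDKO library, of which 25 remained after the same kinds of name were left out. Because the members were chosen on their difference between genotypes, that difference is described below and not tested. For members only the dosing-time comparisons and their interaction with genotype carry a test. The rule did not use dosing time, but it used the same values, and a wide spread within a genotype makes it harder to meet. Shares of members in these tests are therefore not independent of the rule.

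The mice were C57BL/6J males aged 12 to 16 weeks, either WT or Cry1-/-Cry2-/- (CryDKO), which lack both cryptochromes and were bred from heterozygous animals. The platinum compound oxaliplatin, which damages DNA by linking its bases, was injected intraperitoneally into all of them at 12 mg/kg, at circadian time 8 (CT8) or 16 (CT16). The treatment protocol gives 3 consecutive days, while the series' design text also speaks of a single dose. All animals had been kept for 3 weeks under 12 h of light a day and were in constant darkness from 3 days before the drug. Each of the 4 groups (WT at CT8, WT at CT16, CryDKO at CT8, CryDKO at CT16) held 4 poly(A)-selected liver libraries of 18083916 to 29934138 counted reads. No untreated group was analysed here, so a difference between genotypes and a difference in their response to the drug cannot be told apart, and the interval between injection and collection is not given in the sources used here. Whether each library of a group stands for its own animal is not stated in the labels. Each p below sets a difference against the spread between these samples, which the main edgeR fit took over all 4 groups.

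The genes targeted by the knockout did not behave alike. Cry2 had 533 to 764 normalised reads in the 8 CryDKO libraries and 916 to 1366 in WT. Cry1 lay at 470 to 689 in CryDKO and 120 to 363 in WT, the reverse of what a lost transcript would give, and every direction by genotype rests on the labels. Reads summed over a gene do not show which part was deleted. Of 6 defining hepatocyte transcripts 5 were listed, and their summed level was 42874 to 83686 CPM in WT and 85686 to 140850 in CryDKO. CPM are reads scaled to a common library total after each total was multiplied by its TMM factor, a scaling factor from edgeR. Fitted to the 14484 genes tested, such factors were 0.921 to 1.24 in WT and 0.812 to 1.02 in CryDKO. The CPM used factors fitted to all genes with at least 10 reads in total, which are not given here. A lower factor gives a higher CPM.

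Cryptochromes are the main repressors of the circadian clock: with the PER proteins they hold back CLOCK and BMAL1, which activate genes from E-box elements. They also bind nuclear hormone receptors, among them the glucocorticoid receptor, and restrain transcription through them. In the liver the clock and hormone rhythms together set the daily course of drug conjugation, transport and lipid handling, and in the mouse the pattern of growth hormone secretion makes some of these genes differ between the sexes.

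The promoter windows of Smpdl3b, Nat8f7 and Cyfip2 are shown because these members had the largest separation between genotypes among those with a window. The sequences are those of RefSeq on GRCm38.p6, from 250 bases before to 50 bases after the annotated start, read 5′ to 3′ on the gene's own strand. They lie at chr4:132757122-132757421 for Smpdl3b, chr6:85708512-85708811 for Nat8f7 and chr11:46312309-46312608 for Cyfip2, each on the minus strand. Capitals mark the E-box letters CACGTG, present in the Smpdl3b window and in neither of the others.
Smpdl3b promoter window: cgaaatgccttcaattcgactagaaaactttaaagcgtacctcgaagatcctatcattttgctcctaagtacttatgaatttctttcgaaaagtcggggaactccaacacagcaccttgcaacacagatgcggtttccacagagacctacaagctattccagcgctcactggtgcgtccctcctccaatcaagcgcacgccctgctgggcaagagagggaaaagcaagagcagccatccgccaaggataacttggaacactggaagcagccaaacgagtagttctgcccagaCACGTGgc
Nat8f7 promoter window: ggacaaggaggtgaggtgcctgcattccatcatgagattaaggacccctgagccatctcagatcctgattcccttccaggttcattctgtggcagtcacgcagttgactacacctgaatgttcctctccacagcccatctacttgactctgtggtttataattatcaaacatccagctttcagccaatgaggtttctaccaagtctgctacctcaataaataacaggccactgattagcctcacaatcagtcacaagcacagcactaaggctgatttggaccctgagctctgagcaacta
Cyfip2 promoter window: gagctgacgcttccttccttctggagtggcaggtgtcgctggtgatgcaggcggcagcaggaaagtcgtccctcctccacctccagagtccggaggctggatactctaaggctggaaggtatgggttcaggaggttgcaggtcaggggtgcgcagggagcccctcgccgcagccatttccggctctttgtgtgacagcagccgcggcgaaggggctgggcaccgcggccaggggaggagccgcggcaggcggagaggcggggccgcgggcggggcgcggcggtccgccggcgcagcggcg

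The 5 motifs below were searched on both strands of every window, and 29 of the 39 members had a window. The E-box CACGTG, which CLOCK and BMAL1 bind, reads the same on both strands. It was present in windows of 5 of the 29 members, Atf6b, Ctsf, Lnx1, Smpdl3b and Tspan4, a share of 17.2%, against 11.3% of 11276 tested genes and 8.09% of all 27025 genes with a window. The core TAGGTCA of the element bound by ROR and REV-ERB proteins was found in 1 member, Caln1, which is 3.45% of 29, against 2.60% of tested genes and 2.97% of all genes. None of the 29 held the D-box TTATGTAA (0.816% of tested genes), the STAT5 letters TTCNNNGAA (8.47%) or AGGTCA repeated in the same direction after 1 base of any kind (0.0530%). No member window held more than 1 of these motifs, so none overlapped another there. A match is a description of letters and does not show binding. The stretches around the matches in the other E-box members and in Caln1 follow, with 20 bases on each side. They lie at chr5:74703105-74703150 on the minus strand for Lnx1 and, on the plus strand, at chr7:141476309-141476354 for Tspan4, chr17:34647078-34647123 for Atf6b, chr19:4855066-4855111 for Ctsf and chr5:130369379-130369425 for Caln1. Capitals mark the motif, CACGTG in Lnx1, Tspan4, Atf6b and Ctsf and TAGGTCA in Caln1.
Lnx1 stretch: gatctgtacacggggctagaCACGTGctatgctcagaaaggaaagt
Tspan4 stretch: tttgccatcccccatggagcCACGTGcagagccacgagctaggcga
Atf6b stretch: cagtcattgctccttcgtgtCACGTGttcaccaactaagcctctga
Ctsf stretch: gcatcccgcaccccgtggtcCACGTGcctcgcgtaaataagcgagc
Caln1 stretch: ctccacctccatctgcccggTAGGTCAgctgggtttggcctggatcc

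The members covered a wide span of separation. The mean over the 8 CryDKO libraries was 1.96 to 246 times the WT mean, with a median of 3.73 times, and 23 of the 39 lay under 4 times. The gap, the lowest CryDKO value over the highest WT value, was at least 5 in 4 members, at least 2 in 11 and under 2 in 28. Of the members 8 were nearly silent in WT, with a median under 10 normalised reads, 15 had a WT median of 10 to 100 and 16 of at least 100. The coefficient of variation over the 8 libraries of a genotype had a median over members of 27.9% in WT and 24.8% in CryDKO, and was larger in WT in 24 of 39. All 39 passed the filter on low counts and were among the 14484 genes tested. The size factors that scale the libraries moved with genotype, at 1.04 to 1.43 in WT and 0.744 to 0.994 in CryDKO, and with library size as the only scaling 20 of the 39 still met the rule. The part of this scaling in the separation was not tested beyond that count.

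**Figure D1:**
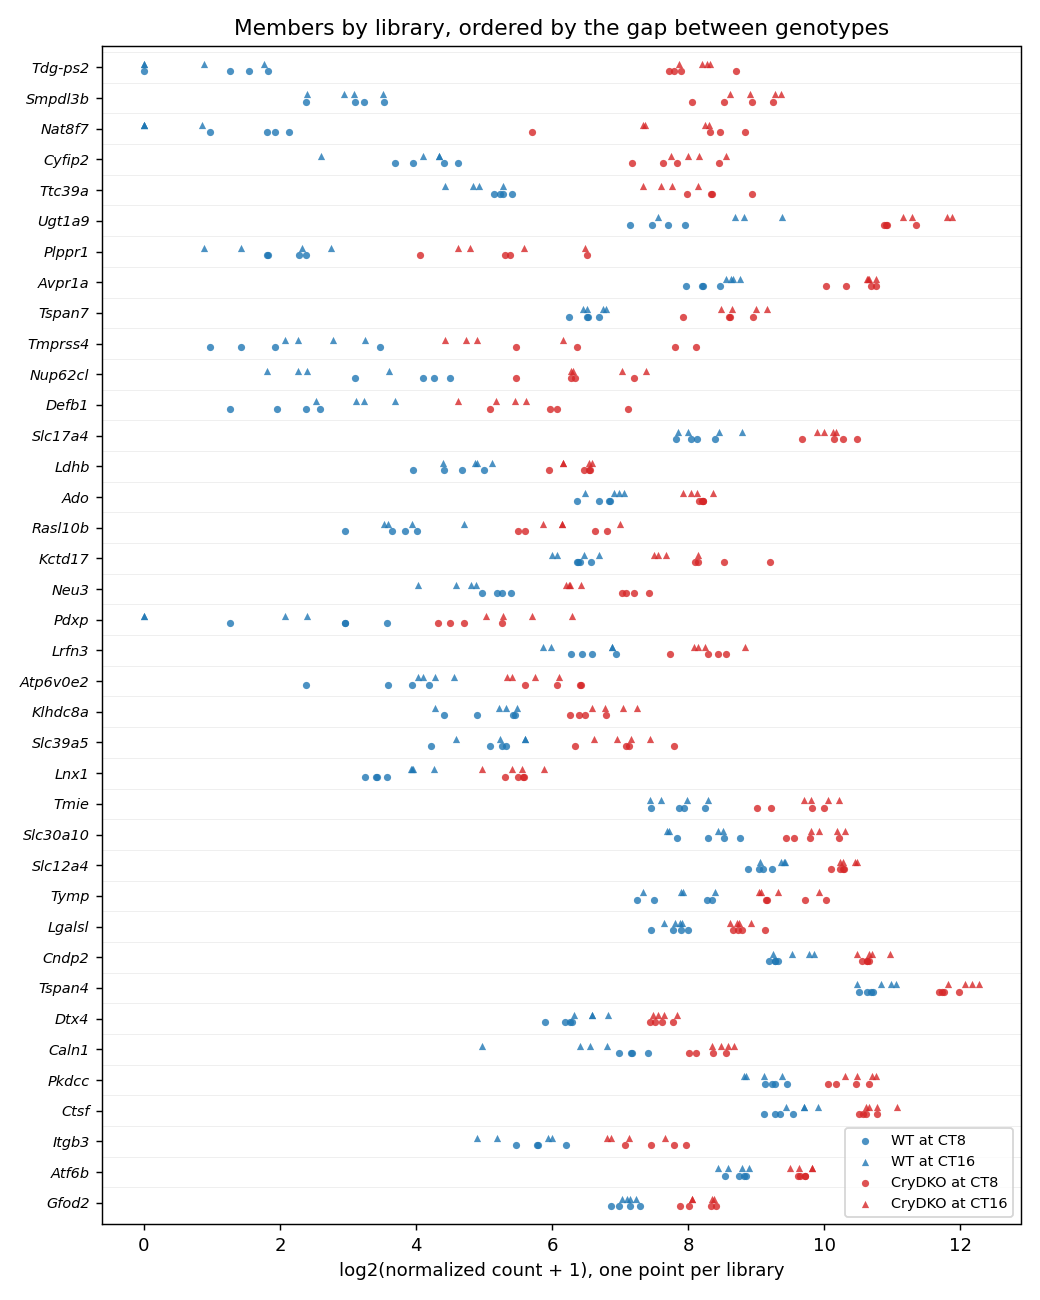
Levels of 38 of the 39 members in each of the 16 libraries, as log2 of the normalised read count plus 1, in order of the gap between genotypes from top to bottom. Blue points are WT and red points CryDKO libraries, circles CT8 and triangles CT16. In each row all red points lie to the right of all blue points, by a gap of 82.5-fold for Tdg-ps2 at the top and 1.51-fold for Gfod2 at the bottom.

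The largest gap was that of Tdg-ps2, a transcribed pseudogene of the thymine DNA glycosylase gene Tdg, whose enzyme removes mismatched thymine from DNA. In WT at CT8 its 4 libraries held 0, 1.40, 1.93 and 2.55 normalised reads and in WT at CT16 they held 0, 0, 0.851 and 2.40. In CryDKO at CT8 they held 210.0, 221, 237 and 417 and at CT16 233, 295, 308 and 320. The pseudogene was thus close to absent in each WT library, with 7 reads over the 4 at CT8 and 4 at CT16, and present in each CryDKO library. Tdg itself moved the other way: it was lower in CryDKO by a log2 change of -0.74 ± 0.20 (SE) at CT8 and -0.82 ± 0.20 at CT16, with adjusted p = 0.00623 and 0.00759 by edgeR (quasi-likelihood test, Benjamini-Hochberg adjusted). The copies are near-identical, so the split of reads between them is uncertain.

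The members that oxidise or conjugate small molecules differed widely in their gap. Nat8f7, of the N-acetyltransferase 8 family that acetylates cysteine conjugates, had 0.963, 2.52, 2.80 and 3.39 normalised reads in WT at CT8 and 0, 0, 0 and 0.799 in WT at CT16. In CryDKO it had 51.3, 318, 355 and 458 at CT8 and 162, 164, 303 and 317 at CT16. WT libraries at CT16 together held 1 read of it, so no fold change is given there. Its gap of 15.1 rested on the library with 51.3, since the other 7 CryDKO libraries had at least 162.

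Ugt1a9, which attaches glucuronic acid to drugs, had 140.0, 176, 207 and 248 normalised reads in WT at CT8 and 188, 411, 451 and 666 in WT at CT16. In CryDKO it had 1888, 1925, 1938 and 2609 at CT8 and 2295, 2508, 3578 and 3780 at CT16. All CryDKO values lay above all WT values by a gap of 2.84, and in WT the upper 3 libraries at CT16 exceeded every library at CT8. The Ugt1a genes share their later exons and differ in the first, so the way reads were assigned among them is uncertain. Ado, an oxidase of cysteamine and of proteins with an N-terminal cysteine, was the evenest of this set, with 81.9 to 133 normalised reads in WT (median 114) and 242 to 329 in CryDKO (median 289.9).

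Among enzymes of lipids and glycans Smpdl3b stood out. It encodes a membrane-anchored phosphodiesterase related to acid sphingomyelinase. Its 8 WT libraries ranged from 4.20 to 10.6 normalised reads with a median of 7.59, and its 8 CryDKO libraries from 265 to 657 with a median of 483. The gap was 25.0-fold, and within CryDKO the libraries differed by a factor of up to 2.48. Plppr1, of a family related to phospholipid phosphatases, was a gene of few reads, with 0.851 to 5.74 in WT (median 3.20) and 15.6 to 90.6 in CryDKO (median 39.7). Neu3, the plasma membrane sialidase that trims gangliosides, had 15.3 to 41.3 normalised reads in WT and 72.6 to 171 in CryDKO, and Lgalsl, a galectin-like protein, 174 to 255 and 393 to 559.

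The 5 transport members had means 2.14 to 4.07 times higher in CryDKO. Slc17a4, of the sodium-phosphate cotransporter family, had 226 to 443 normalised reads in WT (median 270) and 816 to 1436 in CryDKO (median 1129). The group also held the manganese exporter gene Slc30a10, with 205 to 431 normalised reads in WT and 692 to 1271 in CryDKO, and the zinc importer gene Slc39a5, with 17.7 to 47.8 and 80.2 to 221. Slc12a4, a potassium-chloride cotransporter, had 472 to 688 and 1101 to 1431, and the proton pump subunit gene Atp6v0e2 4.20 to 22.6 and 39.4 to 85.3. Slc12a4 was among the steadiest members in CryDKO, with a factor of 1.30 between its highest and lowest library.

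Of the members in intermediary metabolism, Ldhb, the B subunit of lactate dehydrogenase, had 14.4 to 33.6 normalised reads in WT (median 26.3) and 61.3 to 95.4 in CryDKO (median 89.9). Tymp, thymidine phosphorylase, had 152 to 335 in WT and 527 to 1047 in CryDKO. Cndp2, a cytosolic dipeptidase, had 586 to 927 (median 629.7) and 1426 to 2008 (median 1602). Pdxp, a phosphatase of pyridoxal phosphate, was near the floor in WT, with 0 to 10.9 normalised reads and 2 of the 4 libraries at CT16 at 0, and had 19.1 to 77.7 in CryDKO. Gfod2, of an oxidoreductase-domain family, was the member closest to the ratio threshold, with 116 to 156 in WT and 235 to 339 in CryDKO.

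Receptor and cell surface members included Avpr1a, the V1a vasopressin receptor through which hepatocytes respond to vasopressin by releasing glucose. Avpr1a had 249.8, 295, 298 and 352 normalised reads in WT at CT8, 377, 397, 402 and 434 in WT at CT16, 1047, 1284, 1657 and 1729 in CryDKO at CT8 and 1586, 1596, 1617 and 1739 in CryDKO at CT16. The WT libraries of the different dosing times did not overlap, while those of CryDKO did. The tetraspanin genes Tspan7 and Tspan4, which encode organisers of membrane proteins, had 74.9 to 109 and 1426 to 2138 normalised reads in WT, against 241 to 572 and 3288 to 4951 in CryDKO. The integrin beta-3 gene Itgb3, best known from platelets, had 28.9 to 73.2 in WT and 112 to 249 in CryDKO. Lrfn3, a synaptic adhesion protein, lay at 57.5 to 122 against 213 to 455, and Tmie, known from mechanotransduction in the inner ear, at 173 to 313 against 517 to 1193. In bulk liver a gene can be higher because more cells of a type are present or because each cell holds more of its RNA, and these cannot be told apart.

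Of the secreted or proteolytic members, Tmprss4, a transmembrane serine protease, had 0.963 to 10.1 normalised reads in WT (median 3.51) and 20.4 to 277 in CryDKO (median 56.9). Defb1, an epithelial antimicrobial beta-defensin, had 1.40 to 12.0 in WT (median 4.91) and 23.6 to 137 in CryDKO (median 45.5). Both varied widely inside the knockout, by factors of 13.6 and 5.80. Ctsf, the lysosomal protease cathepsin F, and Pkdcc, a secreted tyrosine kinase, were abundant and steady by comparison, at 554 to 958 and 451 to 699 in WT and at 1462 to 2156 and 1068 to 1738 in CryDKO.

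The largest set was that of intracellular regulators, with 10 members. Cyfip2, of the WAVE complex that drives actin branching, had 5.11 to 23.5 normalised reads in WT (median 17.7) and 143 to 376 in CryDKO (median 241). Ttc39a, a protein with tetratricopeptide repeats, had 20.4 to 41.4 (median 35.5) and 160 to 491 (median 266). Their gaps were 6.07 and 3.87. Nup62cl, related to a nucleoporin, had 2.52 to 21.7 in WT and 43.3 to 165 in CryDKO, and Rasl10b, a Ras-like GTPase, 6.79 to 25.2 and 44.3 to 126. Kctd17, an adaptor of cullin-3 ubiquitin ligases, had 63.1 to 102 and 179.9 to 589. The ubiquitin ligase genes Lnx1 and Dtx4 had 8.48 to 18.2 and 58.9 to 112 in WT against 30.2 to 58.1 and 172 to 228 in CryDKO. Caln1, a calcium-binding protein, had 30.2 to 169 and 258 to 407, and the kelch protein gene Klhdc8a 18.4 to 43.6 and 75.9 to 151. Atf6b, a membrane-bound factor of the endoplasmic reticulum stress response related to ATF6, had the smallest ratio of means, 1.96, and the smallest spread in CryDKO, with 347 to 477 normalised reads in WT and 726 to 909 in CryDKO.

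At the edge of the rule Itgb3, Atf6b and Gfod2 lay just inside with gaps of 1.52, 1.52 and 1.51. Gypc, Syne4 and Ier5 lay just outside with 1.47, 1.46 and 1.46. Fxyd6 and En2 met the ratio but had CryDKO means of 16.1 and 14.2 normalised reads. Per kilobase of exon, which allows levels of different genes to be set side by side, the CryDKO median ran from 5.46 normalised reads for Plppr1 to 1761 for Tspan4. Ugt1a9 stood at 1097 and Avpr1a at 602. In WT the same measure put Tspan4 at 766, Ugt1a9 at 104 and Avpr1a at 136. No exon length was available for Tdg-ps2.

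The high and low libraries were not the same for every member. In WT, library 6 (CT16) was the highest of the 8 for 11 members and library 5 (CT16) for 9. In CryDKO, library 9 (CT8) was the lowest of the 8 for 10 members, Smpdl3b, Nat8f7, Cyfip2, Ugt1a9 and Avpr1a among them, and the highest for 7, Tdg-ps2, Ttc39a, Plppr1, Tmprss4, Kctd17 and Itgb3 among them. Library 13 (CT16) was the lowest for 8 and library 14 (CT16) for 0, while library 12 (CT16) was the highest for 8. Each member kept to the rule when any one library was left out, which removing a library cannot prevent. Without WT library 6 the rule took 60 genes in place of 39, the largest number among the 16 libraries left out in turn.

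Split by dosing time, the genotype difference had the same sign in all 39 members at CT8 and at CT16, as the rule fixes. The fitted log2 change of the 39 had a median of 1.99 at CT8 and 1.82 at CT16, and it was larger at CT8 in 22 members and at CT16 in 17. Among all 14484 genes 39.0% were called in either direction between genotypes at CT8 and 18.2% at CT16 at an adjusted p under 0.05, and since the rule used this contrast nothing is read from the members' own calls. Tmprss4 went from a log2 change of 5.26 ± 0.69 (SE) at CT8 to 2.72 ± 0.67 at CT16 and Defb1 from 4.41 ± 0.49 to 2.16 ± 0.45. Pdxp went from 1.99 ± 0.57 to 4.60 ± 0.66, Nup62cl from 2.41 ± 0.43 to 4.32 ± 0.48 and Caln1 from 1.08 ± 0.25 to 2.21 ± 0.26. The fitted changes of Nat8f7 and Tdg-ps2 rest on few WT reads and depend on how zeros are treated. So does that of Pdxp at CT16, where WT held 9 reads in total and 2 libraries were at 0. Those of Tmprss4 and Defb1 also rest on few WT reads. Over the WT libraries these were 19 and 16 at CT8 and 25 and 39 at CT16.

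**Figure D2:**
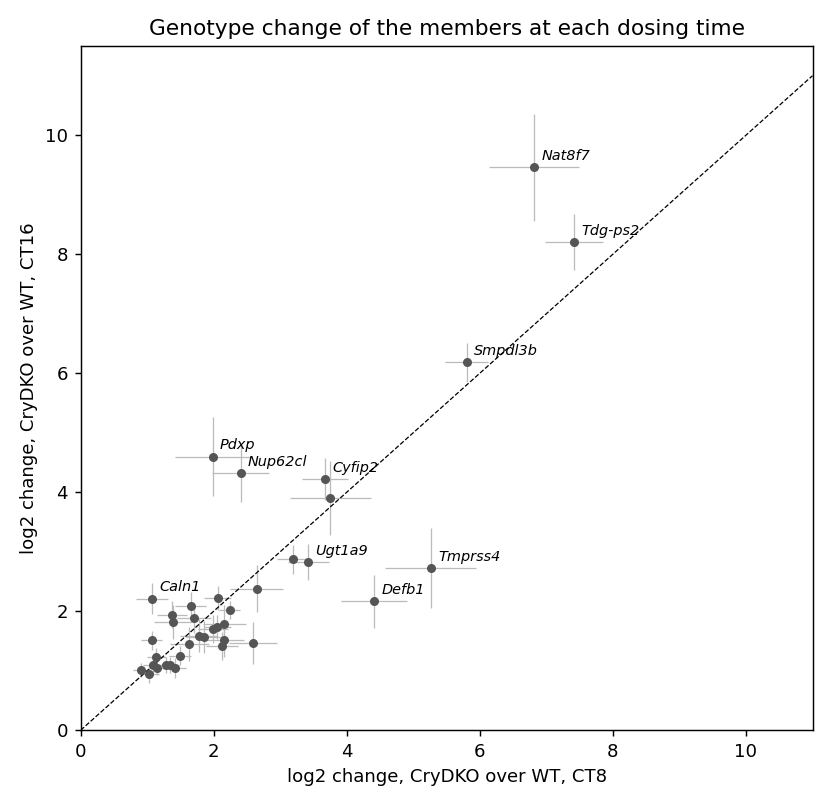
Fitted log2 change of CryDKO over WT at CT8 (horizontal axis) and at CT16 (vertical axis) for 38 of the 39 members, with standard errors as bars and the line of equal change dashed. Tmprss4 and Defb1 lie below the line and Pdxp, Nup62cl, Caln1 and Nat8f7 above it.

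Whether the size of the genotype difference depended on dosing time was tested by the interaction of both, in a fit over all genes. Of the 39 members 0 passed by edgeR, against 6 of 14484 genes, 0.0414%, and 0 passed in DESeq2 and in limma voom. A total of 7 had an unadjusted p under 0.05, which is 17.9% of members against 13.3% of all genes. The lowest p belonged to Defb1, with an interaction of -2.25 ± 0.67 on the log2 scale (adjusted p = 0.216 by edgeR). Its WT libraries held 1.40, 2.89, 4.24 and 5.05 normalised reads at CT8 and 4.78, 7.66, 8.39 and 12.0 at CT16, and its CryDKO libraries 33.1, 61.4, 66.0 and 137 at CT8 and 23.6, 35.2, 43.0 and 47.9 at CT16. The WT values thus tended to be higher at CT16 and the CryDKO values at CT8, with overlap in each genotype. Caln1 followed with 1.14 ± 0.35 (adjusted p = 0.219 by edgeR). Caln1 had 125, 143, 144 and 169 normalised reads in WT at CT8 and 30.2, 83.9, 92.8 and 111 at CT16, against 258, 277, 329 and 374 in CryDKO at CT8 and 327, 356, 382 and 407 at CT16. All WT libraries at CT16 were below all WT libraries at CT8, which was not so in CryDKO. Nup62cl had 1.91 ± 0.64 (adjusted p = 0.239 by edgeR), and without WT library 8 at CT16 its adjusted p was 0.0415. Its WT libraries held 7.57, 16.1, 18.3 and 21.7 at CT8 and 2.52, 3.83, 4.26 and 11.2 at CT16.

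In WT, dosing at CT16 was compared with dosing at CT8. With no collection time at hand, the hour of dosing and the clock phase of the sampled liver cannot be told apart. Of the 39 members 1 passed, against 2.53% of all genes tested, and 10 had an unadjusted p under 0.05, 25.6% against 26.4% of all genes. The gene that passed was Ugt1a9, whose 8 WT values are given above. It was higher at CT16 by a log2 change of 1.12 ± 0.29 (SE), adjusted p = 0.0483 by edgeR, with means of 193 ± 45.9 normalised reads at CT8 and 429 ± 196 at CT16 (SD, n = 4). The call was close to the threshold: its adjusted p ranged from 0.00182 to 0.164 when single libraries were left out, and was 0.164 without WT library 5 at CT16. Without WT library 8 at CT16 8 members were called, Caln1, Cndp2, Ctsf, Dtx4, Neu3, Nup62cl, Slc12a4 and Ugt1a9. The share of all genes called in that fit is not given here, so nothing is read from this count. Library 8 differed from its group in scaling, with a TMM factor of 1.20. The other WT libraries at CT16 had 0.921 to 0.955 and those at CT8 1.13 to 1.24. It also held the lowest Ugt1a9 value at CT16, 188 normalised reads. The cause was not tested. The 4 libraries at CT16 did not overlap the 4 at CT8 in 6 members, against 12.8% of all genes. They were higher at CT16 for Avpr1a, Dtx4 and Lnx1 and lower for Caln1, Nat8f7 and Neu3.

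In CryDKO, 0 of the 39 members passed in the same comparison with edgeR and 0 with limma voom, as did 0 of 14484 genes (0.00%) with edgeR, while DESeq2 called 1 member, Neu3. The share of all genes that DESeq2 called is not given here. Of the members 5 had an unadjusted p under 0.05, 12.8% against 6.48% of all genes. The lowest p was that of Neu3, with a log2 change of -0.92 ± 0.22 (adjusted p = 0.530 by edgeR and 0.00956 by DESeq2). Neu3 held 129.8, 134, 146 and 171 normalised reads in CryDKO at CT8 and 72.6, 75.3, 75.5 and 85.4 at CT16. In WT it held 30.3, 35.6, 37.6 and 41.3 at CT8 and 15.3, 23.0, 27.2 and 28.5 at CT16. It was the only member whose libraries did not overlap between dosing times in CryDKO, where 2.44% of all genes did not, and in both genotypes the CT16 libraries were the lower. The WT change of Neu3 was -0.64 ± 0.23 (adjusted p = 0.0979 by edgeR) and its interaction -0.28 ± 0.32 (adjusted p = 0.741 by edgeR), a difference between genotypes that the spread between samples does not resolve.

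Next by p in CryDKO were Tmprss4 and Kctd17, each with adjusted p = 0.632 by edgeR. Tmprss4 had 43.3, 82.0, 223 and 277 normalised reads at CT8 and 20.4, 25.5, 28.9 and 70.4 at CT16, a log2 change of -2.12 ± 0.56. Kctd17 had 273, 281, 367 and 589 at CT8 and 179.9, 187, 203 and 283 at CT16, a log2 change of -0.83 ± 0.23. In each the highest library at CT16 reached into the range of CT8, and the other 3 lay below it.

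**Figure D3:**
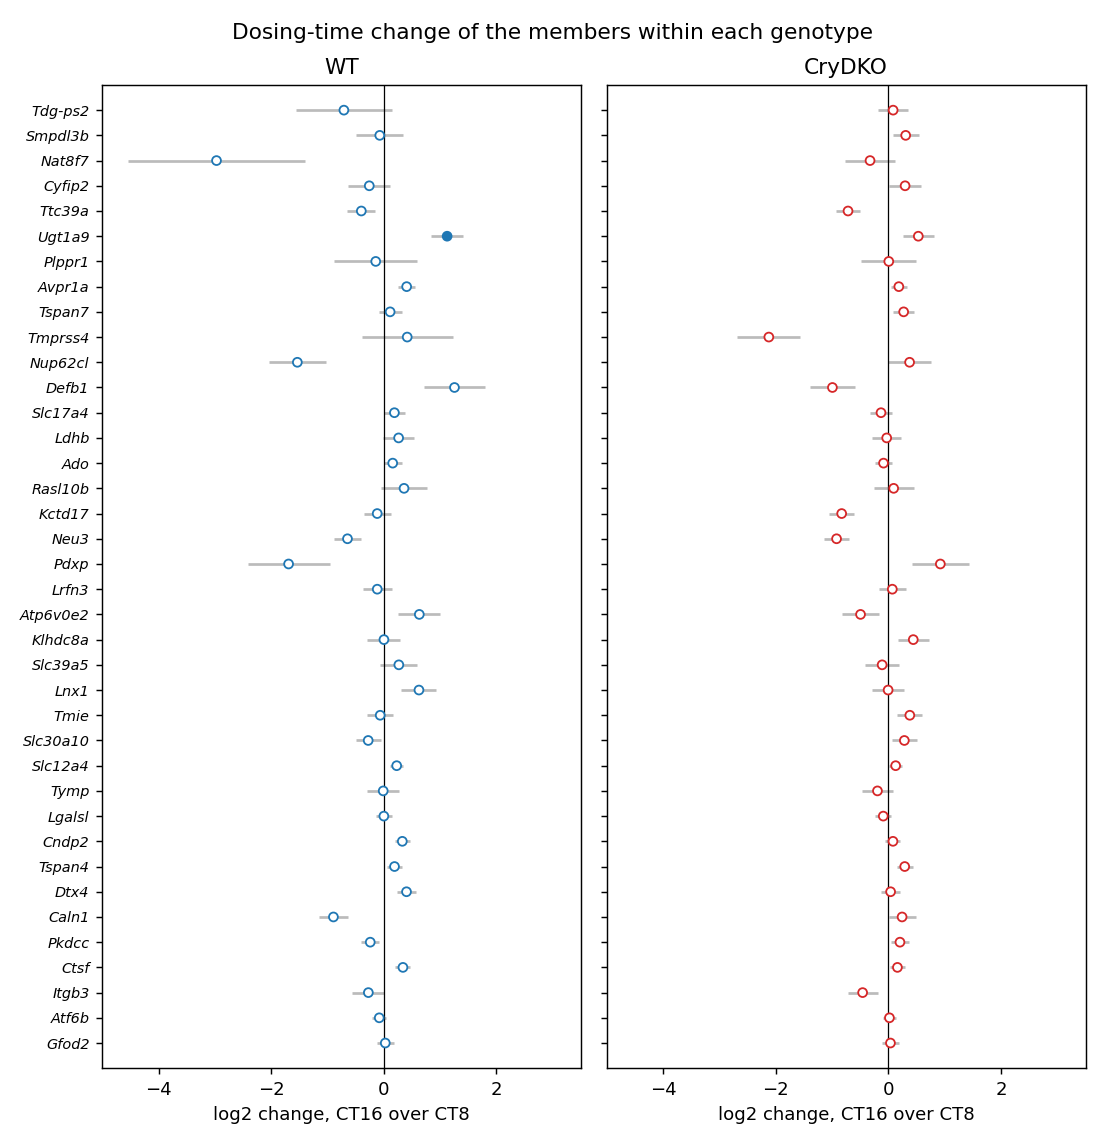
Log2 change of CT16 over CT8 for 38 of the 39 members in WT (left) and in CryDKO (right), with standard errors as bars. The filled point, Ugt1a9 in WT, passed at an adjusted p under 0.05 and open points did not. Neu3 lies below 0 in both panels, and Nup62cl, Pdxp and Caln1 lie below 0 in WT alone.

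Genes that share a symbol stem with a member were examined next to see whether whole families differed by genotype. The 24 stems were chosen after the members' values had been seen. Over all stems 124 other genes were tested, of which 31 were higher and 19 lower in CryDKO at CT8, and 17 higher and 7 lower at CT16. Among all 14484 genes 2706 were higher and 2943 lower at CT8, and 1303 and 1326 at CT16. With library size as the only scaling, which shifts the median of all genes by -0.36 at CT8 and -0.16 at CT16 on the log2 scale, the stems gave 20 higher and 29 lower at CT8 and 12 and 13 at CT16, so the balance of directions changed with the scaling. Next to Smpdl3b, its closest relative by name, Smpdl3a, was at -0.02 ± 0.15 and -0.01 ± 0.15, neither passing, while Smpd3, a neutral sphingomyelinase, rose by 2.62 ± 0.36 at CT8 and 1.40 ± 0.35 at CT16 (adjusted p = 8.02e-05 and 0.0109 by edgeR). Cyfip1 was at 0.33 ± 0.14 and -0.04 ± 0.14 and did not pass.

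Of the 5 other Ugt1a genes tested 3 were higher and 0 lower at CT8, or 1 and 2 with library size as the only scaling. At CT16 3 were higher and 1 lower, or 2 and 2 with that scaling. Ugt1a10 rose by 2.44 ± 0.46 at CT8 and 1.69 ± 0.44 at CT16 (adjusted p = 0.000578 and 0.0124 by edgeR). Ugt1a5 rose by 1.26 ± 0.43 and 1.41 ± 0.43 (adjusted p = 0.0326 and 0.0355 by edgeR). Ugt1a1, the main bilirubin-conjugating form, was at 0.76 ± 0.22 and 0.77 ± 0.22 (adjusted p = 0.0102 and 0.0202 by edgeR), but at CT16 the call was lost without library 6, 7 or 8 of WT or library 11 of CryDKO (highest adjusted p = 0.0693) and at CT8 with library size as the only scaling (0.102). Ugt1a6b fell at CT16 by 0.97 on the log2 scale (adjusted p = 0.0153 by edgeR). Ttc39b, known from cholesterol metabolism in mouse liver, was lower at both times, with -1.47 ± 0.16 and -1.44 ± 0.16 (adjusted p = 8.38e-06 and 1.53e-05 by edgeR). Ttc39aos1, a noncoding gene named as the opposite strand of Ttc39a, rose by 1.56 ± 0.36 and 1.94 ± 0.38 (adjusted p = 0.00272 and 0.00231 by edgeR). In the Nat8 family, Nat8 rose at CT16 by 2.01 ± 0.45 (adjusted p = 0.00868 by edgeR) and was at 0.95 ± 0.44 at CT8, where it did not pass. Of the 6 other genes of this family 0 were higher and 1 lower at CT8. At CT16 2 were higher and 0 lower, or 2 and 1 with library size as the only scaling.

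**Figure D4:**
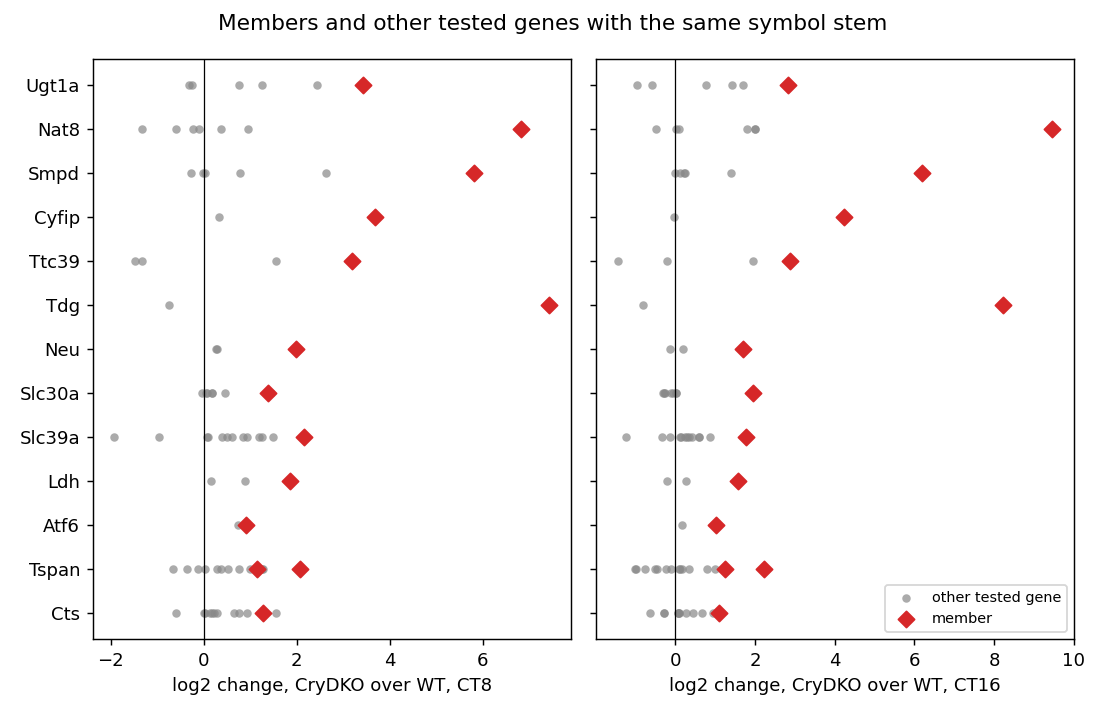
Log2 change of CryDKO over WT at CT8 (left) and CT16 (right) for members (red diamonds) and other tested genes with the same symbol stem (grey points), for 13 of the 24 stems. The members lie to the right of 0 by the rule that chose them. Grey points lie on both sides of 0, with Ttc39b, Slc39a2 and Tdg among the low ones. The highest grey points are Smpd3 and Ugt1a10 at CT8 and Nat8 and Nat8f5 at CT16.

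Transporter families varied in the same way. Of 12 other Slc39a zinc transporter genes 7 were higher and 2 lower at CT8, or 5 and 2 with library size as the only scaling, and 1 was higher and 1 lower at CT16. Slc39a7, which moves zinc out of the endoplasmic reticulum, rose at both times by 1.20 ± 0.17 and 0.88 ± 0.17 (adjusted p = 5.81e-05 and 0.00157 by edgeR), and Slc39a2 was lower at CT8, with -1.92 ± 0.35 (adjusted p = 0.000417 by edgeR). At CT16 the call of Slc39a2, at -1.24 ± 0.36, was lost without library 12 of CryDKO or library 8 of WT (highest adjusted p = 0.0888 by edgeR). Of 7 other Slc30a genes 0 passed at either time by edgeR, next to the member Slc30a10, and 1 was lower at each time with library size as the only scaling. Of 6 other Slc12a genes 4 were lower and 0 higher at CT8, next to Slc12a4. At CT16 0 were lower and 0 higher, or 1 and 0 with library size as the only scaling. Atf6, the relative of Atf6b, rose at CT8 by 0.75 ± 0.16 (adjusted p = 0.00163 by edgeR) and did not pass at CT16.

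Lists of genes by function were set beside the members, and only some of the 30 lists, cell markers included, are given here. Beside them stand the 2706 higher and 2943 lower of all 14484 genes at CT8, and 1303 and 1326 at CT16. Of 18 tested female-biased liver genes that did not meet the rule 6 were higher and 0 lower in CryDKO at CT8, with a median log2 change of 1.64 against -0.02 over all genes tested, and 4 were higher and 0 lower at CT16. Cyp2c40, a cytochrome P450, rose by 3.07 ± 0.45 and 2.53 ± 0.43 (adjusted p = 0.000257 and 0.00172 by edgeR). Of 18 tested male-biased genes 0 were higher and 6 lower at CT8, or 12 lower with library size as the only scaling, and 3 were lower at CT16. Of 16 targets of the xenobiotic receptors CAR and PXR 4 were higher and 0 lower at CT8, which turned to 1 higher and 3 lower with library size as the only scaling, and 2 were higher and 1 lower at CT16. In the list of the unfolded protein response, to which Atf6b is related but which does not hold it, 12 of 25 were higher and 0 lower at CT8, or 7 and 0 with library size as the only scaling, and 3 were higher and 0 lower at CT16. That pattern was not particular to this list. Of 12 periportal hepatocyte genes 9 were higher and 0 lower at CT8, and 0 and 0 at CT16. Of 22 genes of gluconeogenesis and amino acid catabolism 11 were higher and 0 lower at CT8, and 1 and 0 at CT16. Of 23 interferon response genes 0 were higher and 8 lower at CT8, and 0 and 7 at CT16.

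In the genome the members were scattered. With RefSeq GRCm38.p6 used for names and distances, 4 of the 39 lay on chromosome 10 with Cry1 (Tdg-ps2, Ado, Avpr1a and Slc39a5), 10.3% against 4.98% of 14314 tested genes with a position. None lay within 10 Mb of Cry1, and the nearest, Ado, was 17.6 Mb away. None lay on chromosome 2 with Cry2, where 7.80% of tested genes lie. Among pairs of members Slc12a4 and Gfod2 were 0.185 Mb apart and Kctd17 and Pdxp 0.473 Mb. Of the 39, 38 were annotated as protein-coding. Several overlap another gene, Cyfip2 with Fndc9, Tymp with Sco2 and Ncaph2, Lnx1 with Fip1l1, Tmie with Als2cl, Slc39a5 with Ankrd52 and Tspan4 with Chid1, and their counts are uncertain to that extent.

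Markers of other liver cells also moved with genotype in part. Summed over 9 macrophage markers, all listed, the level was 25.0 to 89.3 CPM in WT and 63.1 to 170 in CryDKO, and over 6 cholangiocyte markers 25.3 to 90.5 and 47.7 to 148. Over 8 sinusoidal endothelium markers it was 45.9 to 123 and 76.0 to 123, and over 11 stellate cell and fibroblast markers 79.1 to 172 and 54.8 to 282. Neutrophil markers, 5 of 7 listed, reached at most 4.80 and 10.3 CPM, 8 T and NK cell markers 2.01 and 4.32, and 6 B and plasma cell markers 4.83 and 12.1. Erythroid markers, 4 of 6 listed, summed to 28.1 to 51.7 in WT and 12.2 to 43.5 in CryDKO. Each of these ranges, taken over both dosing times, overlapped between genotypes. Split by dosing time, the macrophage sums at CT16 did not, with 25.0 to 89.3 CPM in WT and 98.2 to 170 in CryDKO. Nor did the erythroid sums at CT8, with 38.1 to 47.2 in WT and 12.7 to 31.7 in CryDKO. The hepatocyte transcripts given above did not overlap even over both times, with at most 83686 CPM in WT and at least 85686 in CryDKO. All these CPM include TMM factors. Those given above, fitted to the genes tested, differed in part by genotype and, within WT, in part by dosing time. Whether the narrow separation of the hepatocyte transcripts, or those of the macrophage and erythroid sums, hold with library size as the only scaling was not tested. The part of these cell types in the members' levels was not tested.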

How the data were processed

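Poly(A)-selected liver RNA was read as pairs of 150 bases on an Illumina platform, per the series' design text. Per the submitters' processing notes, the authors used FastQC, Trimmomatic 0.35, STAR 2.5.3, HTSeq 1.99.2 and DESeq2 with GRCm39, and their strand setting and filters are not given in the sources used here. Gene by gene, the authors deposited counts per gene symbol, and separately a normalised signal, counts divided by a size factor per library. Recomputed size factors gave the deposited values of the members to within 0.0005. In the normalised table the 4 columns of CryDKO at CT8 carry each other's running numbers relative to the count table, which leaves the group the same, and library numbers follow the count table.

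Members were taken from the normalised signal by the stated rule. Other genes of gene lists or stems, the markers and the members themselves were chosen with earlier results of these data known. Tests used edgeR 4.0.16 in R 4.3.3 (quasi-likelihood, robust, TMM factors, filterByExpr, 1 coefficient per group over all 16 libraries), adjusted by the Benjamini-Hochberg method over 14484 genes, with a threshold of 0.05. The procedure was tested on simulated data with known changes. Alternatives were DESeq2 1.42.0, limma 3.58.1 voom, DESeq2 size factors in edgeR, library size alone, no low count filter, only the groups compared, and each library left out. Named members were the 15 with the largest gap, the 10 with the highest CryDKO mean, any in a gene list, those passing each dosing-time test or interaction or else the 3 with the lowest p, the 3 nearest each side of the ratio threshold, the 5 most and 5 least variable in CryDKO, and any within 10 Mb of Cry1 or Cry2. Other genes of a counted list were named up to 4 by lowest p. The remaining members, and genes of the same symbol stem, were named after their values had been seen. Positions and promoter windows came from RefSeq GRCm38.p6, and exon lengths from GENCODE vM21 on GRCm38. Column names carry a group and a running number but no replicate number of the labels. Figures were drawn with Python 3.11.15 and matplotlib 3.10.9. The values of 1 member are not reported here.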

Additional observations from a re-analysis of the deposited data

Results flagged for a closer look

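In each of the 156 sets of 4 libraries (39 members in 4 groups), the gap of the highest or lowest library to its nearest neighbour was compared with the range of the set, and 6 exceeded Dixon's 95% critical value for 4 samples. Chance flags about 1 in 20 such sets. Tdg-ps2 in CryDKO at CT8 had 417 normalised reads in library 9 and 210.0 to 237 in the others. Ugt1a9 in CryDKO at CT8 had 2609 in library 15 and 1888 to 1938 in the others. Tmprss4 in CryDKO at CT16 had 70.4 in library 14 and 20.4 to 28.9 in the others. Ldhb in CryDKO at CT8 was low in library 10, with 61.3 against 87.6 to 92.9. Lnx1 in WT at CT16 had 18.2 in library 5 and 14.3 to 14.5 in the others. Nat8f7 in WT at CT16 had 0.800 in library 8, a single read, and 0 in the others.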

How the results depend on the processing

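The number of members depended on the scaling and on the ratio asked for: it was 21 with library size as the only scaling (20 shared with the 39), 89 at a ratio of 5 to 4, 11 at a ratio of 2, and 39 to 60 when each library was left out in turn (60 without WT library 6 at CT16). For CT16 against CT8 in WT, the number of members called was 3 with DESeq2, 2 with limma voom, 0 with only the groups compared and 0 to 8 when each library was left out. The shares of all genes called under these settings are not given here, in WT or in CryDKO. The adjusted p of Ugt1a9 in this comparison was 0.00512 with DESeq2, 0.0488 with limma voom, 0.0471 with DESeq2 size factors, 0.0605 with library size alone, 0.0633 with no low count filter, 0.0619 with only the groups compared and 0.00182 to 0.164 with each library left out. With library size alone and with no low count filter the count was 1, but the gene was Caln1 and not Ugt1a9. For CT16 against CT8 in CryDKO it was 1 with DESeq2 and 0 to 0 with each library left out, and for the interaction 0 to 1. Library size alone moved the calls over all genes by genotype from 2706 higher and 2943 lower to 961 and 5127 at CT8, and from 1303 and 1326 to 605 and 1883 at CT16. Of the 78 log2 changes of members by genotype, 26 moved by more than the SD between replicates with library size alone and 0 with DESeq2 size factors. The cause was not tested. No paired analysis was possible because the columns carry a running number and no replicate number of the labels. The interaction with only the groups compared uses all groups and was not run. Depth limits what can be said within WT of Tdg-ps2, Nat8f7, Pdxp, Plppr1, Tmprss4 and Defb1, which had 0 to 15 reads in each WT library.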
